A study of Mus musculus with 5 samples.

Results

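Integrin and laminin chain genes were examined across mouse embryonic fibroblasts (MEFs), induced pluripotent stem cells (iPSCs), and mouse embryonic stem cells of the V6.5 line. The members were the gene symbols present in both deposited expression tables that name an integrin α chain (18 genes), an integrin β chain (8 genes), or a laminin α, β, or γ chain (5, 3, and 3 genes), which gave 37 of 24421 genes. The 5 libraries, 1 per group, were MEFs, iPSCs, untreated V6.5 cells, V6.5 cells that carried a nontargeting control shRNA (NTC), and V6.5 cells that carried an shRNA against Gldc (shGldc). According to the study's methods, MEFs came from mid-gestation CF-1 embryos and were grown in serum, and pluripotent cells were grown with leukaemia inhibitory factor either on gelatin in a serum replacement or on feeder cells in serum. Which of these cultures gave the libraries is not given in the sources used here. Each group was a single library, so no difference has a replicate check and no p-value is given.

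Integrins are receptors made of 1 α and 1 β chain that span the cell membrane and tie the extracellular matrix to the actin cytoskeleton. The pair of chains sets the ligand, such as laminin, collagen, or the RGD motif (arginine, glycine, and aspartate) of fibronectin and vitronectin. Laminins are secreted trimers of 1 α, 1 β, and 1 γ chain that form the base of basement membranes, the thin sheets of matrix under epithelia and around the early embryo. Embryonic stem cells attach to laminin and fibronectin through integrins, and fibroblasts make and bind an interstitial matrix rich in fibronectin and fibrillar collagen.

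Levels are given as FPKM, a count of mapped fragments scaled by transcript length and by library size, so that genes can be compared. Ratios are log2 differences of FPKM + 0.1, and folds are plain FPKM quotients. MEFs, iPSCs, and untreated V6.5 cells share 1 table, and NTC and shGldc cells share the other, so the comparisons were made within a table, and the ratios to untreated V6.5 cells given for NTC and shGldc cells cross the tables and are descriptions only. A gene entered a comparison when its FPKM was at least 1 in either library. The depth of a library was estimated, with steps searched between 0.03 and 0.06, at 22.2 to 29.1 M fragments. The estimate is weaker for NTC and shGldc cells, where 25 of 439 and 34 of 405 low values sat at multiples of the step, than for MEFs, where 105 of 859 did. All 10 fibroblast markers examined reached an FPKM of 1 in MEFs, and all 10 pluripotency markers did so in each of the 4 pluripotent libraries. The FPKM of Gldc was 74.7 in NTC and 2.07 in shGldc cells. Fibroblast markers summed to 7396 in MEFs, 54.6 in untreated V6.5 cells, 13.1 in iPSCs, 11.4 in NTC cells, and 4.10 in shGldc cells, so the untreated V6.5 library held more fibroblast marker signal than the other pluripotent libraries, at 0.738% of the MEF level. The part of feeder cells in this signal was not tested.

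Of the 37 members, 30 reached an FPKM of 1 in at least 1 library, and 14 did so in all 5. The number at or above 1 was 23 in MEFs, 20 in untreated V6.5 cells, 21 in iPSCs, 19 in NTC cells, and 17 in shGldc cells. The members summed to an FPKM of 937 in MEFs, 355.5 in untreated V6.5 cells, 391.9 in iPSCs, 312.6 in NTC cells, and 330.8 in shGldc cells. The integrin chains made up most of this gap, with 701 in MEFs and between 180.8 and 234.3 in the pluripotent libraries. The laminin chains summed to 235.8 in MEFs and to between 121.2 and 160.4 in the others.

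**Figure D1:**
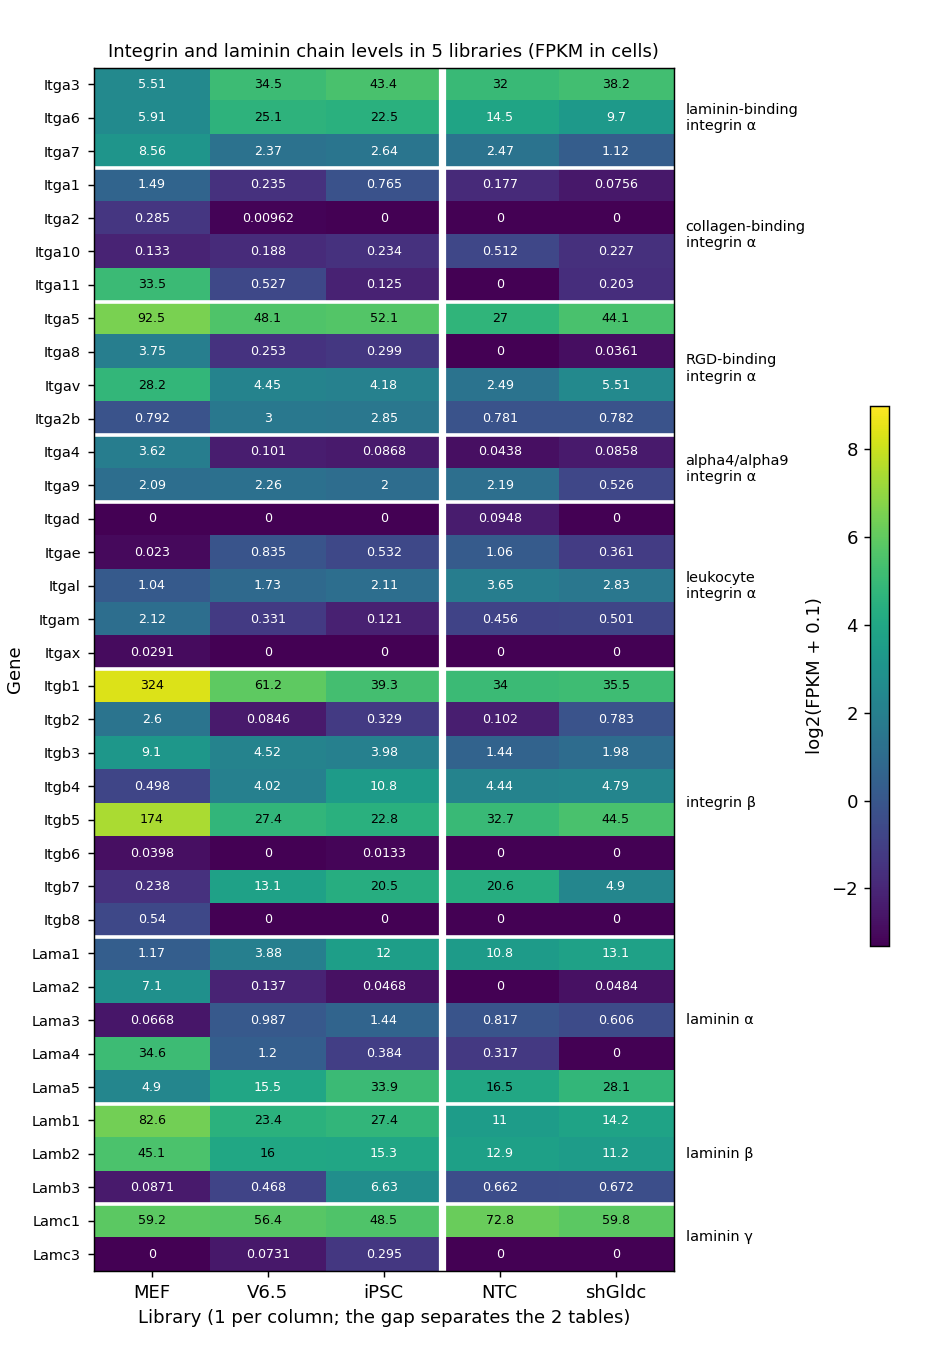
FPKM of the integrin and laminin chain genes, all but 1 of the 37 (rows, grouped by role) in the 5 libraries (columns), printed in each cell and coloured by log2(FPKM + 0.1), with a white gap between the 2 separately made tables. Itgb1, at 324 in MEFs, is the highest value, and Itga3 and Itgb7 are lower in MEFs than in each of the 4 pluripotent libraries.

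Compared with MEFs, untreated V6.5 cells had lower levels of the collagen and RGD receptor chains Itga1, Itga11, Itgav, and Itga8 and higher levels of the laminin receptors Itga3 and Itga6. The same classes also held chains that went the other way, with the laminin receptor Itga7 lower (log2 ratio -1.81) and the RGD receptor Itga2b higher (1.79). Past 2-fold, 8 of the 27 members that entered this comparison were higher (29.6%) and 14 were lower (51.9%). Among all 12840 genes compared, 30.3% were higher and 23.3% lower by this measure. In iPSCs over MEFs, 29 members entered, of which 10 were higher (34.5%) and 14 lower (48.3%) past 2-fold, against 31.5% and 21.3% of all 13032 genes. The share of members at least 2-fold lower was above that of all genes in each comparison, and the share at least 2-fold higher was close to it. The median log2 ratio of the members was -1.49 in V6.5 cells and -0.88 in iPSCs, whereas that of all genes was 0.25 and 0.31. Both comparisons share the MEF library and are not independent of each other.

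**Figure D2:**
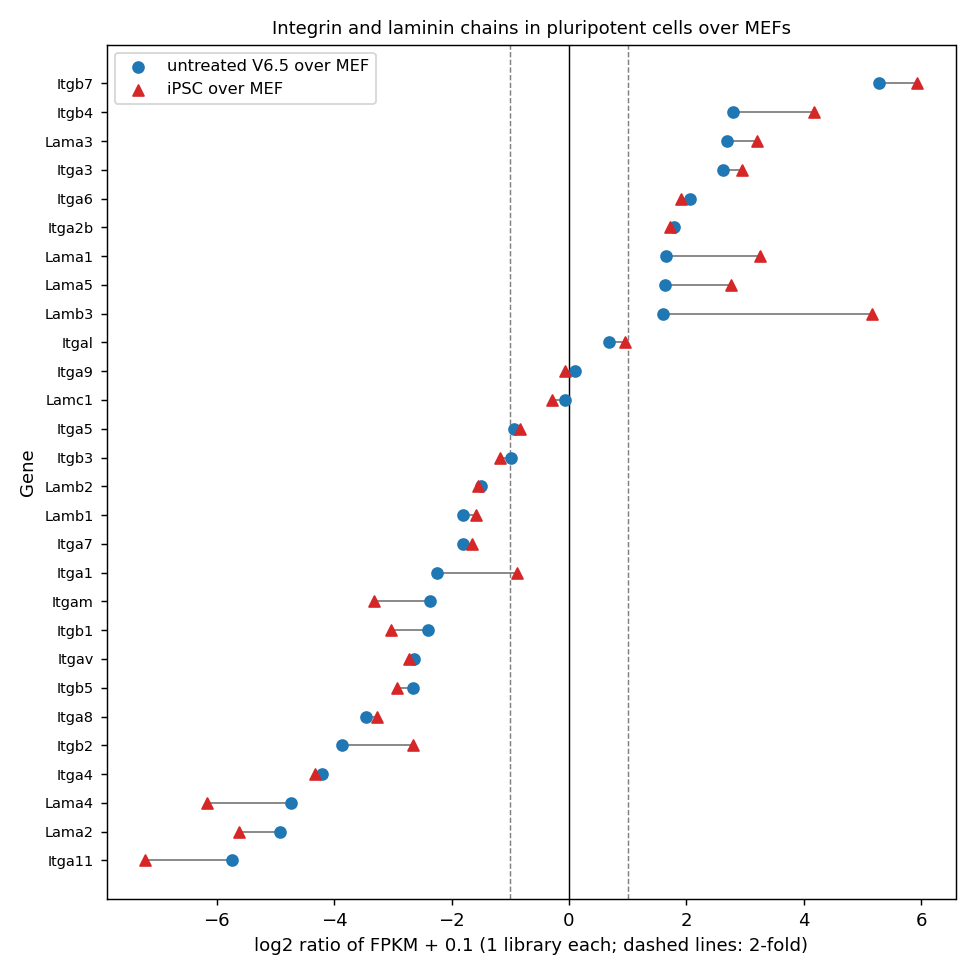
log2 ratio of FPKM + 0.1 in untreated V6.5 cells (circles) and iPSCs (triangles) over MEFs for all but 1 of the 29 members with an FPKM of at least 1 in any of the 3 libraries, with dashed lines at 2-fold. Itga11 lies furthest to the left, at -5.74 and -7.22, and Itgb7 furthest to the right, at 5.29 and 5.93.

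The laminin-binding α chains did not share a direction. Itga3, the α3 chain, which pairs with β1 to bind laminins with an α5 chain, had an FPKM of 5.51 in MEFs, 34.5 in untreated V6.5 cells, 43.4 in iPSCs, 32.0 in NTC cells, and 38.2 in shGldc cells. The 4 pluripotent libraries were close to each other and all above MEFs, by 6.26-fold in untreated V6.5 cells and 7.87-fold in iPSCs. Itga6, the α6 chain, which joins β1 or β4, was at 5.91, 25.1, 22.5, 14.5, and 9.70 in the same order of libraries. Its level was lowest in MEFs, and among V6.5 cells it spread from 9.70 to 25.1. Itga7, the laminin receptor of muscle, had the opposite pattern, with 8.56 in MEFs, 2.37 in untreated V6.5 cells, 2.64 in iPSCs, 2.47 in NTC cells, and 1.12 in shGldc cells. The 6 skeletal muscle markers summed to 3.74 in MEFs and 8.16 in untreated V6.5 cells, of which Myl4 made up 2.82 and 6.92. Without Myl4 the sums were 0.917 and 1.24, and the part of muscle cells in the level of Itga7 was not tested. Itga3 and Itga6 held 2.91% and 3.12% of the summed integrin α FPKM in MEFs, and 27.8% and 20.2% in untreated V6.5 cells.

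Among the collagen-binding α chains, a single gene carried the signal of MEFs. Itga11, the α11 chain, which fibroblasts use to bind fibrillar collagen, had an FPKM of 33.5 in MEFs, 0.527 in untreated V6.5 cells, 0.125 in iPSCs, and 0.203 in shGldc cells, and it was listed at 0 in NTC cells. MEFs exceeded untreated V6.5 cells 63.5-fold and iPSCs 268-fold, and Itga11 had the lowest ratio of all members in both comparisons. Its rank from the bottom was 111 of 12840 genes in V6.5 cells and 83 of 13032 in iPSCs. Itga1, another collagen receptor chain, was at 1.49 in MEFs, 0.235 in untreated V6.5 cells, and 0.765 in iPSCs. Its log2 ratio to MEFs was thus -2.25 in V6.5 cells and -0.88 in iPSCs. Itga2 and Itga10 stayed under an FPKM of 1 in all 5 libraries, with highest values of 0.285 in MEFs and 0.512 in NTC cells.

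Of the 4 RGD-binding α chains, Itga5, Itgav, and Itga8 were highest in MEFs and Itga2b was not. Itga5, the α5 chain of the main fibronectin receptor, had 92.5 in MEFs, 48.1 in untreated V6.5 cells, 52.1 in iPSCs, 27.0 in NTC cells, and 44.1 in shGldc cells. It was the most abundant α chain in MEFs, untreated V6.5 cells, iPSCs, and shGldc cells, and it came second to Itga3 in NTC cells. Its log2 ratio to MEFs was -0.94 in V6.5 cells and -0.83 in iPSCs, short of 2-fold, but -1.19 and -1.14 when each was centred on the median of all genes. Itgav, the αV chain, which binds vitronectin and latent TGFβ, was at 28.2 in MEFs against 4.45, 4.18, 2.49, and 5.51 in untreated V6.5 cells, iPSCs, NTC cells, and shGldc cells. MEFs stood above every pluripotent library, by 6.34-fold over untreated V6.5 cells. Itga8, which also binds RGD ligands, was at 3.75 in MEFs and at 0.299 or lower elsewhere. Itga2b, the αIIb chain known as a platelet receptor and as an early blood marker, went the other way, with 0.792 in MEFs, 2.995 in untreated V6.5 cells, 2.85 in iPSCs, 0.781 in NTC cells, and 0.782 in shGldc cells. The NTC and shGldc levels of Itga2b matched the MEF level rather than that of untreated V6.5 cells. Of 6 megakaryocyte and platelet markers, Pf4, Gp9, Gp6, and Ppbp were listed at 0 in each of the 4 pluripotent libraries. Gp1ba was at 0.171 to 0.398 there and listed at 0 in MEFs, and Gp1bb was at 0.220 to 1.02 there and 11.6 in MEFs.

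Itga4, the α4 chain that binds Vcam1 and fibronectin and whose exons overlap Cerkl on the other strand by 8.04%, had an FPKM of 3.62 in MEFs and between 0.0438 and 0.101 in the pluripotent libraries. Itga9, its nearest relative, was even across MEFs (2.09), untreated V6.5 cells (2.26), iPSCs (2.00), and NTC cells (2.19), but at 0.526 in shGldc cells. The sign of the small V6.5 over MEF ratio of Itga9 depended on the scaling, with 0.11 as deposited and -0.13 after centring.

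The leukocyte integrin chains were low throughout. Itgam, the αM chain of macrophages, was at 2.12 in MEFs, 0.331 in untreated V6.5 cells, 0.121 in iPSCs, 0.456 in NTC cells, and 0.501 in shGldc cells, but the overlapping gene Gm49368 shares 66.3% of its 50-nt stretches. Gm49368 is not among the genes of the tables used here, and whether it took reads from Itgam was not tested. Itgb2, the β2 chain shared by leukocyte integrins, had 2.60 in MEFs and between 0.0846 and 0.783 in the other libraries. In MEFs, 11 of 12 macrophage markers reached an FPKM of 1, among them Lyz2 at 141.7, C1qa at 52.7, Tyrobp at 17.9, Csf1r at 11.1, Cd68 at 18.7, and Laptm5 at 18.03. In untreated V6.5 cells, the macrophage markers summed to 35.0, against 357 in MEFs, and 24.0 of this came from Laptm5, while Ptprc, C1qc, Tyrobp, and Aif1 were listed at 0. In iPSCs the sum was 165.5, of which Laptm5 made up 144.6 and Cd68 19.9, both above their MEF levels. The part of macrophages in the MEF levels of Itgam and Itgb2 was not tested. Fewer cells of a type and less RNA per cell cannot be told apart in bulk libraries. Itgad and Itgax, the αD and αX chains, had highest values of 0.0948 in NTC cells and 0.0291 in MEFs. Itgal, the αL chain of lymphocytes, did not follow this pattern, with 1.04 in MEFs, 1.73 in untreated V6.5 cells, 2.11 in iPSCs, 3.65 in NTC cells, and 2.83 in shGldc cells.

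The integrin β chains were dominated by Itgb1 and Itgb5. Itgb1, the β1 chain, which pairs with most of the α chains above, had an FPKM of 324 in MEFs, 61.2 in untreated V6.5 cells, 39.3 in iPSCs, 34.0 in NTC cells, and 35.5 in shGldc cells. It ranked at number 213 of all genes in MEFs and was 5.30-fold lower in untreated V6.5 cells and 8.26-fold lower in iPSCs. Itgb5, the β5 partner of αV, was at 174 in MEFs, 27.4 in untreated V6.5 cells, 22.8 in iPSCs, 32.7 in NTC cells, and 44.5 in shGldc cells. For both genes, every pluripotent library lay well below MEFs. Itgb6 and Itgb8, further partners of αV, reached no more than 0.0398 and 0.540, both in MEFs. Itgb3, the β3 partner of αV and αIIb, had 9.10 in MEFs, 4.52 in untreated V6.5 cells, 3.98 in iPSCs, 1.44 in NTC cells, and 1.98 in shGldc cells. Its log2 ratio to MEFs was -0.99 in V6.5 cells and -1.18 in iPSCs, and centring took the V6.5 ratio past 2-fold, to -1.24. The summed α and β chains were at 189.6 and 511 in MEFs, but at 124.0 and 110.4 in untreated V6.5 cells and 133.9 and 97.7 in iPSCs.

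A pair of β chains was higher in the pluripotent cells. Itgb7, the β7 chain known from gut-homing lymphocytes as the partner of α4 and αE, had an FPKM of 0.238 in MEFs, 13.1 in untreated V6.5 cells, 20.5 in iPSCs, 20.7 in NTC cells, and 4.90 in shGldc cells. It had the highest ratio of all members over MEFs, 55.2-fold in V6.5 cells and 86.2-fold in iPSCs, and held 11.9% of the summed integrin β FPKM in V6.5 cells. Its partner chains were far lower, with Itgae at 0.835 in untreated V6.5 cells and 0.532 in iPSCs and Itga4 at 0.101 and 0.0868. Itgb4, the β4 chain, which joins α6 in the hemidesmosomes of epithelia, was at 0.498 in MEFs, 4.02 in untreated V6.5 cells, 10.8 in iPSCs, 4.44 in NTC cells, and 4.79 in shGldc cells. Its level in iPSCs was 2.68-fold that in untreated V6.5 cells.

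Among the laminin α chains, different genes led in MEFs and in pluripotent cells. Lama4, the α4 chain of vessel and mesenchymal laminins, had an FPKM of 34.6 in MEFs, 1.20 in untreated V6.5 cells, 0.384 in iPSCs, and 0.317 in NTC cells, and it was listed at 0 in shGldc cells. Lama2, the α2 chain of muscle and nerve laminins, was at 7.10 in MEFs, 0.136 in untreated V6.5 cells, 0.0468 in iPSCs, and 0.0484 in shGldc cells, and it was listed at 0 in NTC cells. Both genes were thus high in the MEF library alone. Lama5, the α5 chain of most embryonic and epithelial basement membranes, had 4.90 in MEFs, 15.5 in untreated V6.5 cells, 33.9 in iPSCs, 16.5 in NTC cells, and 28.1 in shGldc cells. Lama1, the α1 chain of the earliest embryonic laminin, was at 1.17, 3.88, 12.0, 10.9, and 13.1 in the same order of libraries. These levels were lowest in MEFs for both genes, and for Lama1 untreated V6.5 cells lay between MEFs and the other pluripotent libraries. Lama4 and Lama2 made up 72.4% and 14.8% of the summed laminin α FPKM in MEFs, whereas Lama5 and Lama1 made up 71.4% and 17.9% in untreated V6.5 cells and 70.9% and 25.2% in iPSCs. Lama3, the α3 chain of epithelial laminin, was at 0.0668 in MEFs, 0.987 in untreated V6.5 cells, 1.44 in iPSCs, 0.817 in NTC cells, and 0.606 in shGldc cells.

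**Figure D3:**
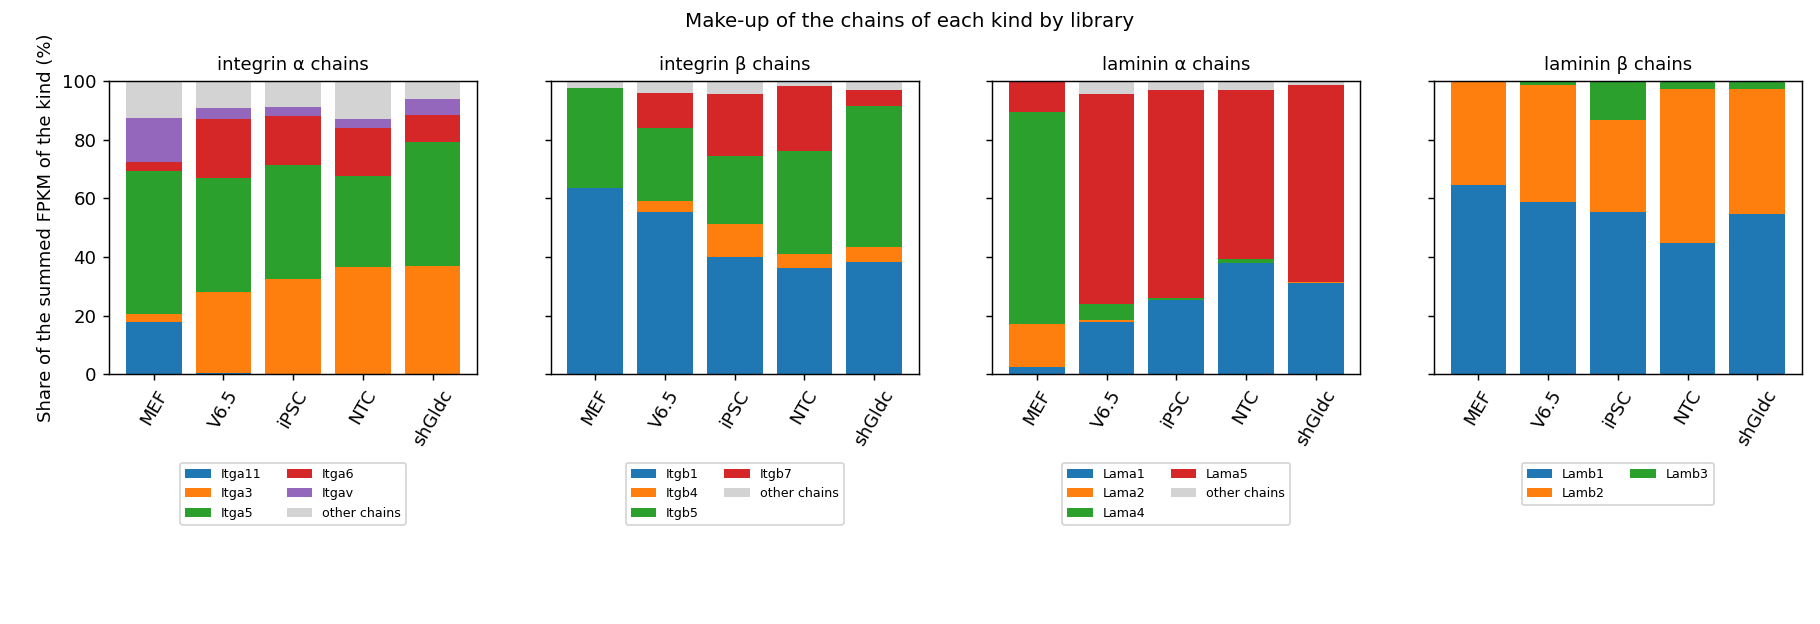
Share of each integrin α and β and laminin α and β chain in the summed FPKM of its kind (y axis, %) in the 5 libraries (bars), with chains under 5% in every library drawn together in grey. Lama4, at 72.4% of the laminin α chains in MEFs, gives way to Lama5, at 57.9% to 71.4% in the 4 pluripotent libraries.

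The common β and γ chains were shared by all libraries. Lamb1, the β1 chain, had an FPKM of 82.6 in MEFs, 23.4 in untreated V6.5 cells, 27.4 in iPSCs, 11.02 in NTC cells, and 14.2 in shGldc cells. Lamb2, the β2 chain, was at 45.1, 16.0, 15.3, 12.9, and 11.1 in the same order. Both were higher in MEFs than in every pluripotent library, by 3.52-fold and 2.82-fold over untreated V6.5 cells. Lamc1, the γ1 chain of most laminins, was at 59.2 in MEFs, 56.4 in untreated V6.5 cells, 48.5 in iPSCs, 72.8 in NTC cells, and 59.8 in shGldc cells; its log2 ratio was -0.07 in V6.5 cells and -0.29 in iPSCs over MEFs. Lamc3, the γ3 chain, reached no more than 0.295, in iPSCs. Lamc1 was the most abundant member in NTC and shGldc cells. The summed α and β chains of laminin were at 47.9 and 127.7 in MEFs, 21.7 and 39.9 in untreated V6.5 cells, and 47.8 and 49.3 in iPSCs.

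The sequences just upstream of 4 members are shown because the members differ from MEFs in opposite directions: Itga11 and Itga4 were lower and Itgb7 and Lama5 higher in the pluripotent cells. The windows are from RefSeq on GRCm38.p6 (mm10), and each holds the 120 bases before the gene start, 5′ to 3′ on the strand of the gene. Capitals mark the GC box GGGCGG on either strand, a binding motif of Sp1. Itga11 is on the plus strand (chr9:62677706-62677825), Itga4 on the plus strand (chr2:79255306-79255425), Itgb7 on the minus strand (chr15:102231945-102232064), and Lama5 on the minus strand (chr2:180225860-180225979).
Itga11: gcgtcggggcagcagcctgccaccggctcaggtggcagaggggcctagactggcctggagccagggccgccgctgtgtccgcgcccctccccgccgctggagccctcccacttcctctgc
Itga4: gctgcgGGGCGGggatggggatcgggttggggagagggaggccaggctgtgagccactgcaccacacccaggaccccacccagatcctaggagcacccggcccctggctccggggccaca
Itgb7: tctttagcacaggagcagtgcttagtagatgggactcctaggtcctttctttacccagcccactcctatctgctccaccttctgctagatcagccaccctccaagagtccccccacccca
Lama5: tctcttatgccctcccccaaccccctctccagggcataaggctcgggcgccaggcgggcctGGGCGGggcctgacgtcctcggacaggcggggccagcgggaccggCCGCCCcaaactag

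Lama5 held 2 GC boxes and Itga4 held 1 in these bases, and no GC box was in those of Itga11 and Itgb7. The number of CpG dinucleotides was 10 for Lama5, 9 for Itga11, 5 for Itga4, and 0 for Itgb7. A RefSeq window was given for 23 of the 37 members, some with more than 1 start, which made 26 windows of 250 upstream bases. A GC box was in 9 of these 26 windows (34.6%) and in 32.7% of all 32851 windows. The AP-1 motif TGANTCA was in 1 (3.85%, against 6.75% of all), CCAAT in 4 (15.4%, against 33.8%), and TATAAA in 0 (against 12.4%), each searched on both strands and counted on its own. These matches describe letters in the window and are not measured binding sites.

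The pluripotent lines differed from each other mainly in laminin chains, with Lamb3, Lama1, Lama5, and Itgb4 among those higher in iPSCs. Of 22 members compared between iPSCs and untreated V6.5 cells, 5 were at least 2-fold higher in iPSCs (22.7%), against 10.1% of all 12323 genes, and 1 was at least 2-fold lower (4.55%), against 7.44%. Lamb3, the β3 chain, was at 6.63 in iPSCs, 0.468 in untreated V6.5 cells, 0.662 in NTC cells, 0.672 in shGldc cells, and 0.0871 in MEFs. The iPSC library stood alone, 14.2-fold above untreated V6.5 cells, and Lamb3 ranked at number 44 from the top of all genes compared. Lama3, the α chain that joins Lamb3 in the laminin of epithelial anchoring, was at 1.44 in iPSCs and 0.987 in untreated V6.5 cells, a 1.46-fold difference. Lama1 was 3.10-fold and Lama5 2.19-fold higher in iPSCs than in untreated V6.5 cells. Lama1 in NTC cells, at 10.9, however, was close to the iPSC level of 12.0. The single member at least 2-fold lower was Lama4, at 0.384 in iPSCs and 1.20 in untreated V6.5 cells, a call that is lost with a pseudocount of 1 (-0.67). Untreated V6.5 is also the library with more fibroblast marker signal. The part of that signal in the V6.5 level of Lama4 was not tested. Of the 13 integrins in this comparison, 12 differed by less than 2-fold, and Itgb4 was the exception.

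Some marker genes of epithelia and of extraembryonic endoderm, a source of basement membrane laminin in the embryo, were higher in iPSCs than in untreated V6.5 cells as well. The 7 epithelial markers summed to 1062 in iPSCs, 377 in untreated V6.5 cells, 198.2 in NTC cells, 397 in shGldc cells, and 13.6 in MEFs, and all 7 reached an FPKM of 1 in each pluripotent library. Past 2-fold, 3 of the 7 were higher in iPSCs than in untreated V6.5 cells (42.9%, against 10.1% of all genes). They were Krt8 (171.4 against 9.98), Krt18 (234.4 against 20.8), and Cldn4 (386.7 against 97.3), and the median log2 ratio of the 7 was 0.30. Cdh1 was at 94.2 against 101.8 and Esrp1 at 7.21 against 9.38. The 9 endoderm markers summed to 20.2 in iPSCs, 6.34 in untreated V6.5 cells, 5.42 in NTC cells, and 21.6 in shGldc cells. The sum was highest in MEFs, at 30.6, of which Dab2 made up 25.9. In the 4 pluripotent libraries, in the same order, Gata4 was at 9.99, 3.52, 2.38, and 7.84 and Afp was listed at 0. Of the 9, 4 entered the comparison of iPSCs with untreated V6.5 cells, and 3 of these were higher past 2-fold (75.0%, against 10.1% of all genes). Whether cells of these types account for the laminin levels was not tested.

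In Gldc knockdown cells, 4 integrin chains were at least 2-fold lower than in NTC cells and 1 was higher, while no laminin chain that entered the comparison differed by 2-fold. The comparison held 19 members, of which 1 was at least 2-fold higher (5.26%), against 8.97% of all 11969 genes, and 4 at least 2-fold lower (21.1%), against 7.68%. The members' median log2 ratio was 0.11, and that of all genes was 0.04. The untreated V6.5 library, in the other table, served as another control of the same line. From untreated V6.5 to NTC cells, 2 of 21 members were at least 2-fold higher (9.52%), against 4.99% of all 12048 genes, and 4 at least 2-fold lower (19.0%), against 10.3%. The controls of the line thus differed in about as many members as NTC and shGldc cells did, and that difference includes any difference between the tables.

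**Figure D4:**
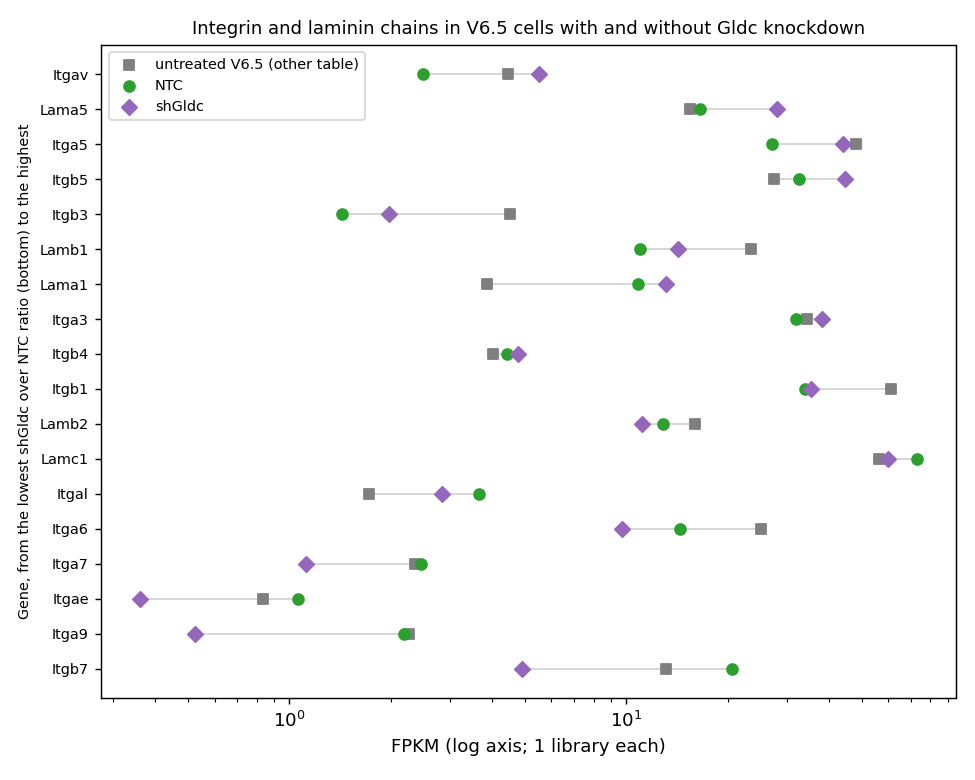
FPKM (log axis) of all but 1 of the 19 members that entered the shGldc over NTC comparison, in untreated V6.5 cells (squares, from the other table), NTC cells (circles), and shGldc cells (diamonds), ordered by the ratio of shGldc over NTC. Itgb7, Itga9, Itgae, and Itga7, at the bottom, have shGldc values below both controls, and Itgav, at the top, has a shGldc value of 5.51 near the 4.45 of untreated V6.5 cells.

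The 4 lower genes were Itgb7, Itga9, Itgae, and Itga7. Itgb7 was at 20.7 in NTC, 13.1 in untreated V6.5, and 4.90 in shGldc cells, with a log2 ratio of -2.05 to NTC and -1.40 to untreated V6.5 cells. Itga9, whose controls were at 2.19 and 2.26, was 4.17-fold lower than NTC in shGldc cells (log2 ratio -1.87). Itgae, the αE partner of β7, which binds E-cadherin, was at 1.06 in NTC, 0.835 in untreated V6.5, and 0.361 in shGldc cells (-1.34). Itga7 was at 2.47, 2.37, and 1.12, just past 2-fold (-1.07). In each of these genes, the shGldc library lay below both controls, but Itga9, Itgae, and Itga7 are near an FPKM of 1 or 2, and at a pseudocount of 1 the ratios were -0.71 for Itga7 and -0.60 for Itgae. The part of counting error in these low values was not tested.

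Itgav was the single member at least 2-fold higher in shGldc than in NTC cells, at 5.51 against 2.49 (log2 ratio 1.11, or 0.90 with a pseudocount of 1). Untreated V6.5 cells were at 4.45, so the shGldc level was 1.24-fold above that control. Itga5 was also lowest in NTC cells, at 27.0, with 44.1 in shGldc and 48.1 in untreated V6.5 cells. Itga6 was at 25.1 in untreated V6.5, 14.5 in NTC, and 9.70 in shGldc cells, a log2 ratio of -0.57 to NTC and -1.36 to untreated V6.5 cells. The log2 ratios of the 6 laminin chains that entered this comparison lay between -0.28 for Lamc1 and 0.76 for Lama5. Lama3 and Lama4, under an FPKM of 1 in both libraries, were at 0.817 and 0.317 in NTC cells and at 0.606 and a listed 0 in shGldc cells. Lama5, at 28.1 in shGldc cells, was above both controls, at 16.5 and 15.5, by less than 2-fold. The epithelial and endoderm marker sums given above were also higher in shGldc than in NTC cells. Against untreated V6.5 cells, the epithelial sum was close, at 397 against 377, and the endoderm sum was higher, at 21.6 against 6.34. Krt8 was at 79.4 in shGldc, 9.09 in NTC, and 9.98 in untreated V6.5 cells, and Krt18 was at 95.4, 11.9, and 20.8. In the same order, Cdh1 was at 79.4, 89.7, and 101.8 and Esrp1 at 1.51, 2.18, and 9.38. The part of epithelial or endoderm cells in the laminin levels was not tested. Lama1, at 13.1 in shGldc and 10.9 in NTC cells, was 3.38-fold and 2.80-fold above untreated V6.5 cells. Itgb1, the shared β chain, was at 35.5 in shGldc and 34.0 in NTC cells.

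The genes of the integrin adhesion machinery, which includes linkers to actin as well as kinases and adaptors, were in part lower in the pluripotent cells as well. Of 33 such genes compared between V6.5 cells and MEFs, 17 were at least 2-fold lower, 1 was at least 2-fold higher, and the median log2 ratio was -1.02. These are 51.5% and 3.03%, against 23.3% and 30.3% of all genes. In iPSCs over MEFs, 20 of 33 were lower past 2-fold (60.6%, against 21.3% of all genes) and 4 higher (12.1%, against 31.5%), with a median of -1.26. The extremes were Tgfb1i1, a paxillin relative, at 55.7 in MEFs and 0.372 in V6.5 cells (-6.89) and Parva, which links integrin-linked kinase to actin, at 112.3 and 4.67 (-4.56). The single gene past 2-fold upward was Parvb, the β-parvin paralog of Parva, at 4.20 in MEFs and 53.2 in V6.5 cells (3.63), followed by Cib1 (0.71). Parva and Parvb thus lay in opposite order in MEFs and V6.5 cells. In shGldc over NTC, 1 of 31 such genes was past 2-fold upward (3.23%, against 8.97% of all genes) and 2 downward (6.45%, against 7.68%), so neither share was above that of all genes. Parva was at 7.24 in shGldc and 1.36 in NTC cells (2.33), but untreated V6.5 cells were at 4.67, and the ratio to that control was 0.62, short of 2-fold. Tns2, a tensin, was at 0.162 in shGldc and 3.51 in NTC cells (-3.79), and its ratio to untreated V6.5 cells was -3.37. Tns3, another tensin, was the other gene past 2-fold, at 17.2 in shGldc and 34.9 in NTC cells (-1.01), but its ratio to untreated V6.5 cells was -0.25. Ilk, the integrin-linked kinase, came next to Parva at the upper end, at 52.4 against 34.8 (0.59).

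The partners of laminin in the basement membrane were also lower in V6.5 cells, with 13 of 20 at least 2-fold lower than in MEFs, 2 higher, and a median log2 ratio of -2.63. The shares were 65.0% lower and 10.0% higher, against 23.3% and 30.3% of all genes. In iPSCs over MEFs, 11 of 19 were lower past 2-fold (57.9%, against 21.3% of all genes) and 4 higher (21.1%, against 31.5%), with a median of -2.61. Smoc2 (-7.18) and Fbln2 (-4.95) had the lowest ratios. Nid2, a nidogen that ties laminin to type IV collagen, was higher, at 70.1 in V6.5 cells and 16.5 in MEFs (2.08), as was Frem2, at 1.07 and 0.0227 (3.25). In shGldc over NTC, 2 of the 15 partners compared were past 2-fold upward (13.3%, against 8.97% of all genes) and 3 downward (20.0%, against 7.68%). Col4a1 and Col4a2, the paired chains of type IV collagen, were the higher ones, at 24.9 against 10.2 (1.28) and 14.5 against 6.67 (1.11), whereas Fbln2 (-2.48) and Ntn1 (-1.94) were lowest. Over untreated V6.5 cells, the shGldc ratios were 1.19 for Col4a1, 0.60 for Col4a2, and -5.15 for Fbln2. The direction for Ntn1 depended on the control, since it was at 1.475 in untreated V6.5, 48.3 in NTC, and 12.5 in shGldc cells.

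Among other laminin receptors and integrin partners, 8 of 14 were at least 2-fold lower (57.1%, against 23.3% of all genes) and 3 higher (21.4%, below the 30.3% of all genes) in V6.5 cells than in MEFs, with a median of -1.26. In iPSCs over MEFs, 6 were lower past 2-fold (42.9%, against 21.3% of all genes) and 4 higher (28.6%, against 31.5%), with a median of -0.12. Plaur, the urokinase receptor, was at 25.3 in MEFs, 5.15 in untreated V6.5 cells, and 57.1 in iPSCs. Bcam, a receptor of laminins with an α5 chain, was at 106.1 in V6.5 cells and 2.53 in MEFs, and at 233.4 in iPSCs, where Lama5 was highest too. Sdc4, a syndecan, was at 54.9 in V6.5 cells and 24.9 in MEFs (1.14). Cav1 (-7.09) and Sdc2 (-3.86) were lowest. In shGldc over NTC, Cd47 was the single gene of 13 past 2-fold (7.69%, against 8.97% of all genes), at 3.02 against 1.31 (1.15) but 0.40 over untreated V6.5 cells, next to Plaur at 0.98, and Sdc3 (-0.53) and Slc3a2 (-0.43) were lowest. Of 19 other integrin ligands, 15 were at least 2-fold lower (78.9%, against 23.3% of all genes) and 2 higher (10.5%, against 30.3%) in V6.5 cells than in MEFs. In iPSCs over MEFs, 15 of 18 were lower past 2-fold (83.3%, against 21.3% of all genes) and 1 higher (5.56%, against 31.5%). Nov (-7.06) and Postn (-6.85) had the lowest ratios, Icam1, a ligand of αL with β2, was at 56.9 against 8.29 (2.76), and Madcam1, the ligand of α4 with β7, was at 1.67 in V6.5 cells and listed at 0 in MEFs. In shGldc over NTC, 2 of 10 ligands were past 2-fold upward, Cyr61 (1.28) and Ctgf (22.7 against 9.15), and 3 of 10 were downward, against 8.97% and 7.68% of all genes, with Tgfb1 at 3.37 against 12.4 (-1.84) and Madcam1 at 0.846 against 2.17 (-1.26) at the end of the order. Over untreated V6.5 cells, the shGldc ratios were -0.45 for Cyr61 and -0.47 for Ctgf, opposite in sign to those over NTC, and -1.98 for Tgfb1 and -0.90 for Madcam1.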

How the data were processed

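RNA-seq was measured in 5 mouse libraries, 1 per group. Per the study's methods and the submitters' processing notes, the authors mapped reads to mm10 with TopHat2 2.1.0, assembled transcripts with StringTie 1.3.4d, and derived gene values with Ballgown. The deposited files hold FPKM in 2 separately made tables. The gene annotation, strand setting, and filters are not given in the sources used here. The knockdown column is headed sh3 and was matched to the single shGldc library, but the hairpin it stands for is not given.

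FPKM ratios were taken as log2(FPKM + 0.1) within a table, and across the tables for NTC and shGldc over untreated V6.5 cells as a description, for genes at or above an FPKM of 1 in 1 or both libraries. With 1 library per group, no test was run, and genes past 2-fold were counted in the members and in all genes. For depth, low FPKM values were multiplied by the transcript length of 5726 genes with a single GENCODE M21 transcript, and the spacing of the products was taken as 1 fragment. A floor of 3 fragments covers counting error only. Overlaps and shared 50-nt stretches came from the same annotation.

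Named genes were every member with an FPKM of at least 1 in any library and, of each pathway list, the 2 highest and 2 lowest ratios in V6.5 over MEF and shGldc over NTC, plus Gldc. Results of 1 member are not reported here, although it is in the counts. Marker genes and other pathway genes named outside that rule were chosen after their values were seen. The members and lists were chosen with earlier results of these data known. The ratio and count steps were tested on simulated data. Alternatives were other pseudocounts, filters, scalings, fold limits, the mean in place of the median, another control library, chain shares with members under an FPKM of 1 set to 0, and, chosen after seeing the data, the members without leukocyte chains and a rescaling to the mean FPKM sum, since the planned rescaling to 1000000 also changed the weight of the pseudocount. Python 3.11.15, numpy 2.4.6, pandas 2.3.3, and matplotlib 3.10.9 were used.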

Additional observations from a re-analysis of the deposited data

How the results depend on the processing

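With 1 library per group, no difference was tested, and leaving out a replicate was not possible. No paired analysis was possible because the labels give no replicate numbers and each group holds 1 library. Depth limits the low values: the floor of 3 fragments was reached or undercut by 4 members in MEFs and 8 in NTC cells.

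In V6.5 over MEF, the count of members past 2-fold upward went from 8 to 4 at an FPKM of at least 5 and to 4 past 4-fold, and the count downward from 14 to 9 at an FPKM of at least 5. The median of -1.49 became -1.01 with a pseudocount of 1, -1.73 with rescaled libraries under either rescaling, -1.74 centred, -0.48 with no filter, -1.65 at an FPKM of at least 5, -1.24 without the leukocyte chains, and -0.97 as a mean. In iPSC over MEF, the median of -0.88 became -1.21 when rescaled to 1000000, -1.16 when rescaled to the mean sum, -1.19 centred, -0.37 with no filter, and -0.46 as a mean. Centring raised the count downward from 14 to 16 in both. In iPSC over V6.5, the count upward went from 5 to 8 with no filter and to 2 past 4-fold, and the count downward from 1 to 2 with no filter and to 0 with a pseudocount of 1, at an FPKM of at least 5, and past 4-fold, while the mean was 0.40 against a median of 0.13. In shGldc over NTC, the count upward went from 1 to 0 with a pseudocount of 1 and past 4-fold, to 3 with no filter, and to 2 when untreated V6.5 cells replaced NTC. The count downward went from 4 to 2 with a pseudocount of 1, to 1 at an FPKM of at least 5 and past 4-fold, and to 7 when untreated V6.5 cells replaced NTC. The counts with untreated V6.5 cells as control, 2 higher (10.0%) and 7 lower (35.0%) of 20 members, cross the tables. The share over all genes was not computed for them. The median of 0.11 became -0.32 with that control and -0.16 as a mean. Itga11, under an FPKM of 1 in these libraries, reversed with that control, from 1.60 to -1.05, and Itgav went from 1.11 to 0.30. Fewer genes enter at the higher filter and fewer pass a larger fold by construction, and the cause of the other shifts was not tested.

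The leukocyte chains were left out, and libraries rescaled to the mean FPKM sum, after seeing the data. Of 630 single-gene ratios under alternatives, 549 moved by less than 0.59, the robust SD of NTC over untreated V6.5 cells on the log2 scale, 80 moved by more, and 1 reversed. Among those 80, 6 came from the rescaling to 1000000, and none of 120 moved so far with the rescaling to the mean sum. With members under an FPKM of 1 set to 0, the largest shift of a chain share was 0.847 to 4.55 percentage points by kind of chain, and all 150 shares stayed within the largest difference between NTC and untreated V6.5 cells for their kind, 2.35 to 20.2 points.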

Other observations

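Itga2 and Itga1, neighbours on chromosome 13, were both highest in MEFs, at 0.285 and 1.49. Of all 37 members, 20 were highest in MEFs.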
